A study of Mus musculus with 6 samples.

Results

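A set of 9 genes that mark the B-cell lineage was examined in cultured bone marrow macrophages of young and old mice: Cd79a, Cd79b, Ebf1, Blnk, Vpreb1, Igll1, Rag1, Rag2 and Pou2af1. They were chosen by name as lineage genes, with earlier results of these data known, and are 9 of the 21631 protein-coding loci in the RefSeq table. A locus is a gene's span plus 10 kb on each side. Every chromatin accessibility peak that overlapped a locus was taken, which gave 115 to 148 peaks per library among the 215947 to 254410 in the lists.

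The data are peak lists from Omni-ATAC, an assay in which a transposase cuts accessible DNA, made from 50000 cells per library. All 6 libraries came from wild-type BALB/c mice. Marrow cells released by crushing leg and arm bones were grown in culture, and the adherent cells carried the macrophage surface proteins F4/80 and CD169. The young group holds 3 libraries from mice aged 3 weeks and the old group 3 libraries from mice aged over 78 weeks. Whether the 3 libraries of an age come from different mice or from different cultures is not in the labels. A p-value here therefore reflects only how these libraries vary, and that variation may be technical.

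B cells arise in the marrow in ordered steps. The transcription factor EBF1 sets up the programme, the RAG1 and RAG2 recombinase joins immunoglobulin gene segments, and the first heavy chain is tested at the cell surface with a surrogate light chain made of VPREB1 and IGLL1. CD79A and CD79B carry the signal of the receptor into the cell, BLNK links the receptor to downstream enzymes, and POU2AF1 is a coactivator of octamer-binding factors. Macrophages are myeloid cells and do not rearrange immunoglobulin genes.

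The labelled cell type was checked on marker lists. The 14 macrophage loci had a median of 103 covered bp per kb (percentile 92.1 of all loci), led by Cd68 at 154 ± 5.31 and Cd14 at 148 ± 8.73 (SD, n = 6). All 7 macrophage genes with an entry in the RefSeq start table had a peak at the start in all 6 libraries. Adgre1, which codes for F4/80, was at percentile 20.8 and Siglec1, which codes for CD169, at 67.9. Among lists for other cells, a start peak in all 6 libraries was found for 2 of 10 T-cell genes, 0 of 6 erythroid, 3 of 8 neutrophil, 3 of 5 plasma-cell and 5 of 6 stromal genes. The best-covered loci of those lists were Lck (86.2 bp per kb) and Cd4 (73.9) for T cells, Xbp1 (112) and Sdc1 (98.7) for plasma cells, Klf1 (136) and Epor (91.3) for erythroid cells, Elane and Prtn3 (115 each) for neutrophils, and Col1a1 (129) and Pdgfrb (118) for stromal cells. Hbb-bt held no peak in any library. Summed coverage of the 39 other B-lineage loci was 163 to 166 kb in young and 156 to 160 kb in old libraries. That of the T-cell list was 25.9 to 26.3 kb in young and 24.4 to 25.3 kb in old libraries. Long loci weigh most in such sums, with a mean of 24660 bp in young and 22979 bp in old from Bach2 alone. The median log2 change per locus, old minus young, was -0.02 for the B-lineage and -0.05 for the T-cell list. The share of like-sized gene sets whose sums separate by age was not computed. The sums overlapped between ages for the macrophage (48.2 to 49.6 against 46.1 to 49.5 kb), plasma-cell (13.9 to 15.9 against 14.0 to 15.6 kb), erythroid (6.36 to 6.92 against 5.79 to 6.62 kb), neutrophil (16.8 to 19.1 against 15.7 to 17.9 kb) and stromal (46.4 to 50.3 against 47.0 to 49.4 kb) lists. The 9 members summed to 28.8 to 33.2 kb in young and 32.1 to 34.1 kb in old libraries. The part of such cells in the results below was not tested. In a bulk library fewer accessible cells and less accessibility per cell cannot be told apart.

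Peaks at the members' own start sites were scarce, and Blnk was the exception. A start window runs from 250 bases before to 50 after a RefSeq start, so it is 300 bp long. The table has such a window for 8 of the 9 members, without Cd79b. Only Blnk had a peak in its window in all 6 libraries, which is 1 of 8 members (12.5%), beside 10378 of 17274 genes with a window (60.1%). Vpreb1, Igll1 and Rag2 had none in any library, like 32.1% of all genes. Cd79a, Ebf1, Rag1 and Pou2af1 had one in 1 to 3 libraries. Of 31 other B-lineage genes with a window, 12 of 14 for surface and signalling proteins and 11 of 17 for regulators and recombination proteins had a start peak in all 6.

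The bases just upstream of 4 of these starts are shown to set the one start under a peak in every library beside one that had none and a pair with weak, scattered peaks. They are RefSeq sequences of the build GRCm38.p6, whose chromosomes are those of mm10, at chr19:40994222-40994471 (minus strand) for Blnk, chr16:16869256-16869505 (minus strand) for Vpreb1, chr7:24897247-24897496 (plus strand) for Cd79a and chr9:51213440-51213689 (plus strand) for Pou2af1. Capitals mark matches to the searched motifs, and the start follows the last base.
Blnk: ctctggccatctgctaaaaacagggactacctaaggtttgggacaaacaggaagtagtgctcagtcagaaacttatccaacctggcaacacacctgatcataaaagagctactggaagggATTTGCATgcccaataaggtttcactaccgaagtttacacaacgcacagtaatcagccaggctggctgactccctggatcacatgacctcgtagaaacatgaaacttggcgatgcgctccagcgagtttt
Vpreb1: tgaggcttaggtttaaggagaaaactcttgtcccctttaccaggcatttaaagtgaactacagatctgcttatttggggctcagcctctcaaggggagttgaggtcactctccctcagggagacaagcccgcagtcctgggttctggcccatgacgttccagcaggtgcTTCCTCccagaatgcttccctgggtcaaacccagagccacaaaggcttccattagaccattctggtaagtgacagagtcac
Cd79a: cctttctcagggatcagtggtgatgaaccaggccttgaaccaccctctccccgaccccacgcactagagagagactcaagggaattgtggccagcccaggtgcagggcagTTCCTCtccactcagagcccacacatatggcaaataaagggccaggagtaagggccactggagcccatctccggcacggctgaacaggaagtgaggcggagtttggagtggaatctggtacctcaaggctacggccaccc
Pou2af1: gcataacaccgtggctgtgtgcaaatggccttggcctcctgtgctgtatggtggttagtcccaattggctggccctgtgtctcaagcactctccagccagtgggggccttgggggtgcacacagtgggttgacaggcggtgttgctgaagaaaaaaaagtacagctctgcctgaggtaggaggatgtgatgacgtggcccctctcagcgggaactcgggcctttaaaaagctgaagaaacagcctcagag

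In these 250 bases, 4 motifs were searched on both strands: the EBF consensus motif, the octamer ATTTGCAT bound by OCT factors, the PU.1 core GAGGAA and the E-box CAGCTG. None of the 4 overlaps another by its letters in these sequences. The Blnk window held the octamer, from 130 to 123 bases upstream, which 1.59% of 21045 promoters of the same length hold. This match lies at chr19:40994344-40994351, at the edge of the Blnk peak. The peak covered 7, 1 and 8 of its 8 bases in the young libraries and 7, 5 and 0 in the old ones. The Vpreb1 and Cd79a windows each held the PU.1 core on the reverse strand (TTCCTC as printed), 76 and 135 bases upstream, as 22.5% of promoters do. In Cd79a the peak of 1 library, old 3, covered that match. The PU.1 core was also found at Rag2 and upstream of the second Ebf1 start, where no peak covered it. No listed motif was found in the Pou2af1 window, and no member held the strict EBF palindrome, which 0.836% of promoters hold. Looser EBF sites were not searched, so their presence, at Cd79a or any other member, is not known from this. The E-box, present in 12.2% of promoters, was found at Igll1 and Rag1. A match describes letters and shows no binding.

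**Figure D1:**
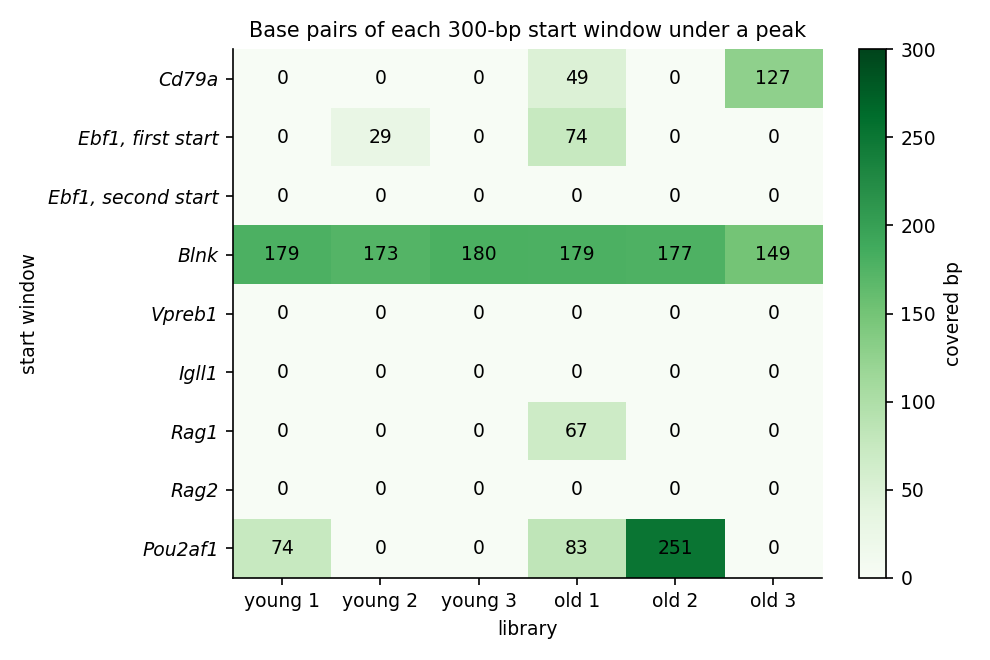
Base pairs of each 300-bp start window covered by a peak, by start window (rows) and library (columns). Blnk has 149 to 180 bp covered in every library, whereas Vpreb1, Igll1, Rag2 and the second Ebf1 start have 0 in all 6.

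Peak cover of the whole loci was near or above the middle of the genome for all members but Pou2af1. Levels are covered bp per kb of locus, scaled so that all libraries have the same sum over all loci. The all-locus median was 42.6. The order by mean (SD, n = 6) was Cd79a 67.2 ± 7.32, Cd79b 66.4 ± 6.05, Igll1 57.8 ± 6.89, Rag2 57.1 ± 9.63, Rag1 53.9 ± 8.16, Vpreb1 53.5 ± 6.22, Ebf1 45.7 ± 4.83, Blnk 44.9 ± 3.74 and Pou2af1 18.4 ± 5.76. Each neighbouring pair in this order overlapped in its library values, except Blnk and Pou2af1. The lowest Blnk library (38.1) lay above the highest Pou2af1 library (29.7). The strongest peak of each locus was also ranked against those of all loci. A stronger one was present, on average over the libraries, in 3.33% of all loci for Cd79a, 9.31% for Rag1 and Rag2, 26.2% for Vpreb1 and Igll1, 45.5% for Ebf1, 48.4% for Blnk, 57.4% for Cd79b and 68.6% for Pou2af1. Much of the members' cover lay outside the genes themselves. The share of locus coverage inside the gene span was 90.3% for Ebf1, 86.2% for Pou2af1, 62.8% for Blnk, 46.4% for Rag2, 41.2% for Rag1, 0.642% for Cd79b, 0.339% for Cd79a and 0% for Vpreb1 and Igll1.

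**Figure D2:**
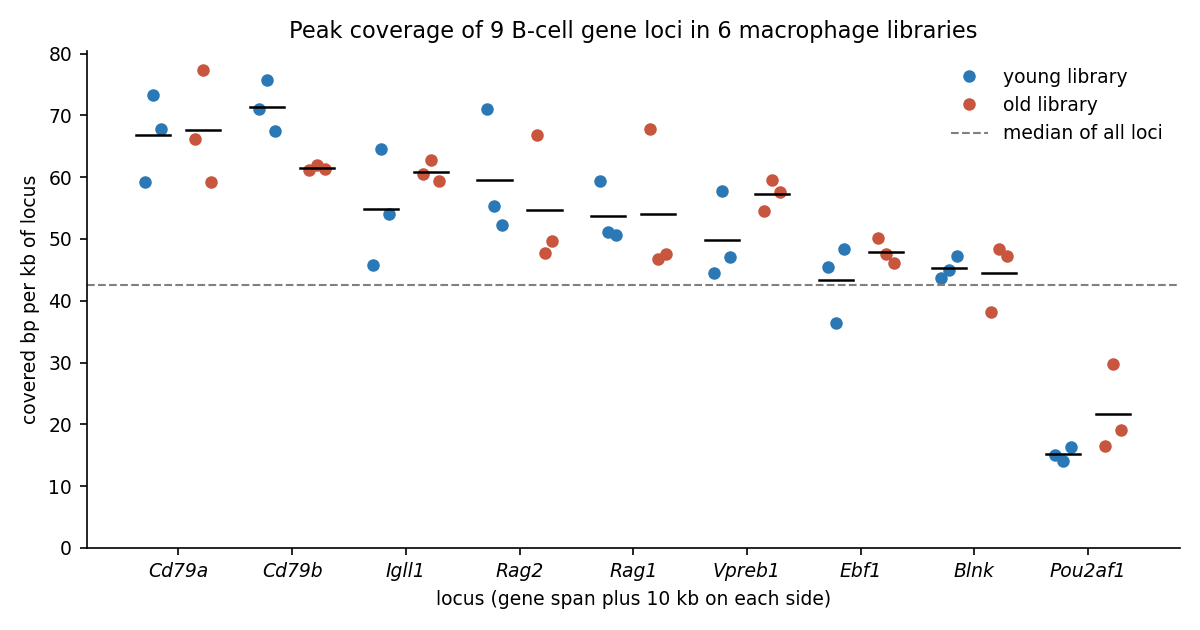
Covered bp per kb of locus for each member in each library (points, young left and old right of each tick), with group means (bars) and the median of all loci, 42.6 (dashed). Pou2af1 lies lowest in every library, from 14 to 29.7.

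Nearly all peak cover in the loci of the receptor signalling pair lay outside the 2 genes. Cd79a (chromosome 7, 24897497 to 24901858) lies between Rps19 and Arhgef1. Its locus held 7 or 8 peaks per library. The strongest, at 24903742 to 24904619, covers a start window of Arhgef1, a guanine nucleotide exchange factor gene. Ranked by −log10 q, the peak caller's confidence, it was among the top 0.0471% to 0.444% of all peaks of its library. A second region in all 6 libraries, 24890109 to 24891002, lies 6495 bp upstream of Cd79a and overlaps no gene. It covered 508, 246 and 533 bp in young against 601, 256 and 398 bp in old libraries. Inside the Cd79a span the 3 young libraries, old 1 and old 2 had 0 bp under peaks and old 3 had 33.3 bp. Its start window was covered over 49 bp in old 1 and 127 bp in old 3 and not at all in the other libraries. Those peaks stood at the top 57.1% and 89.8% of their lists, so cover at Cd79a itself came only from weaker peaks of 2 old libraries.

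Cd79b (chromosome 11, 106311341 to 106314562) had 4 to 7 peaks in its locus. The best-ranked region, 106302717 to 106302922, overlaps Gh, the growth hormone gene, and was present in all 6 libraries. It ranked in the top 6.04%, 7.23% and 5.75% of peaks in the young libraries and the top 7.25%, 13.9% and 13.0% in the old ones. The old ranks were all lower than the young ones, but ranks from lists of unequal length cannot be read as a change. A second region in all 6 libraries, 106305470 to 106306402, overlaps no gene and held the strongest Cd79b peak of old 2. Within the Cd79b span only young 3 (25.3 bp) and old 2 (34.1 bp) had any cover.

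The surrogate light chain genes Vpreb1 (chromosome 16, 16868401 to 16869255) and Igll1 (16860671 to 16863985) are 4415 bp apart, and their loci share 15585 bp. Neither gene span had a base under a peak in any library. The strongest peak of both loci, at 16870300 to 16871351, covers the start of Top3b, a topoisomerase gene. This region starts 1045 bp upstream of Vpreb1 and 6315 bp upstream of Igll1. It covered 917, 865 and 879 bp in the young and 945, 935 and 924 bp in the old libraries before scaling. Between Vpreb1 and Igll1, a weak region at 16865274 to 16865534 was also found in all 6 libraries, with a mean rank in the top 61.3%.

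The recombinase genes Rag1 (chromosome 2, 101638252 to 101649532) and Rag2 (101624712 to 101632528) are likewise neighbours with 14277 bp of shared locus. Their strongest peak, at 101628358 to 101629197, lies inside the Rag2 span and covers the start of Iftap, a gene that overlaps Rag2. It ranked in the top 0.879%, 0.632% and 0.3% in the young libraries and the top 0.41%, 0.676% and 0.581% in the old ones. A second region in all 6 libraries lies inside Rag1, at 101639866 to 101640374, which is 9158 bp from its start. That region was weaker, with a −log10 q of 6.82, 6.09 and 12.2 in young and 10.3, 5.93 and 6.73 in old libraries. The Rag2 start window had no peak, and the Rag1 window had one in old 1 only (67 bp, top 95.6%).

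**Figure D3:**
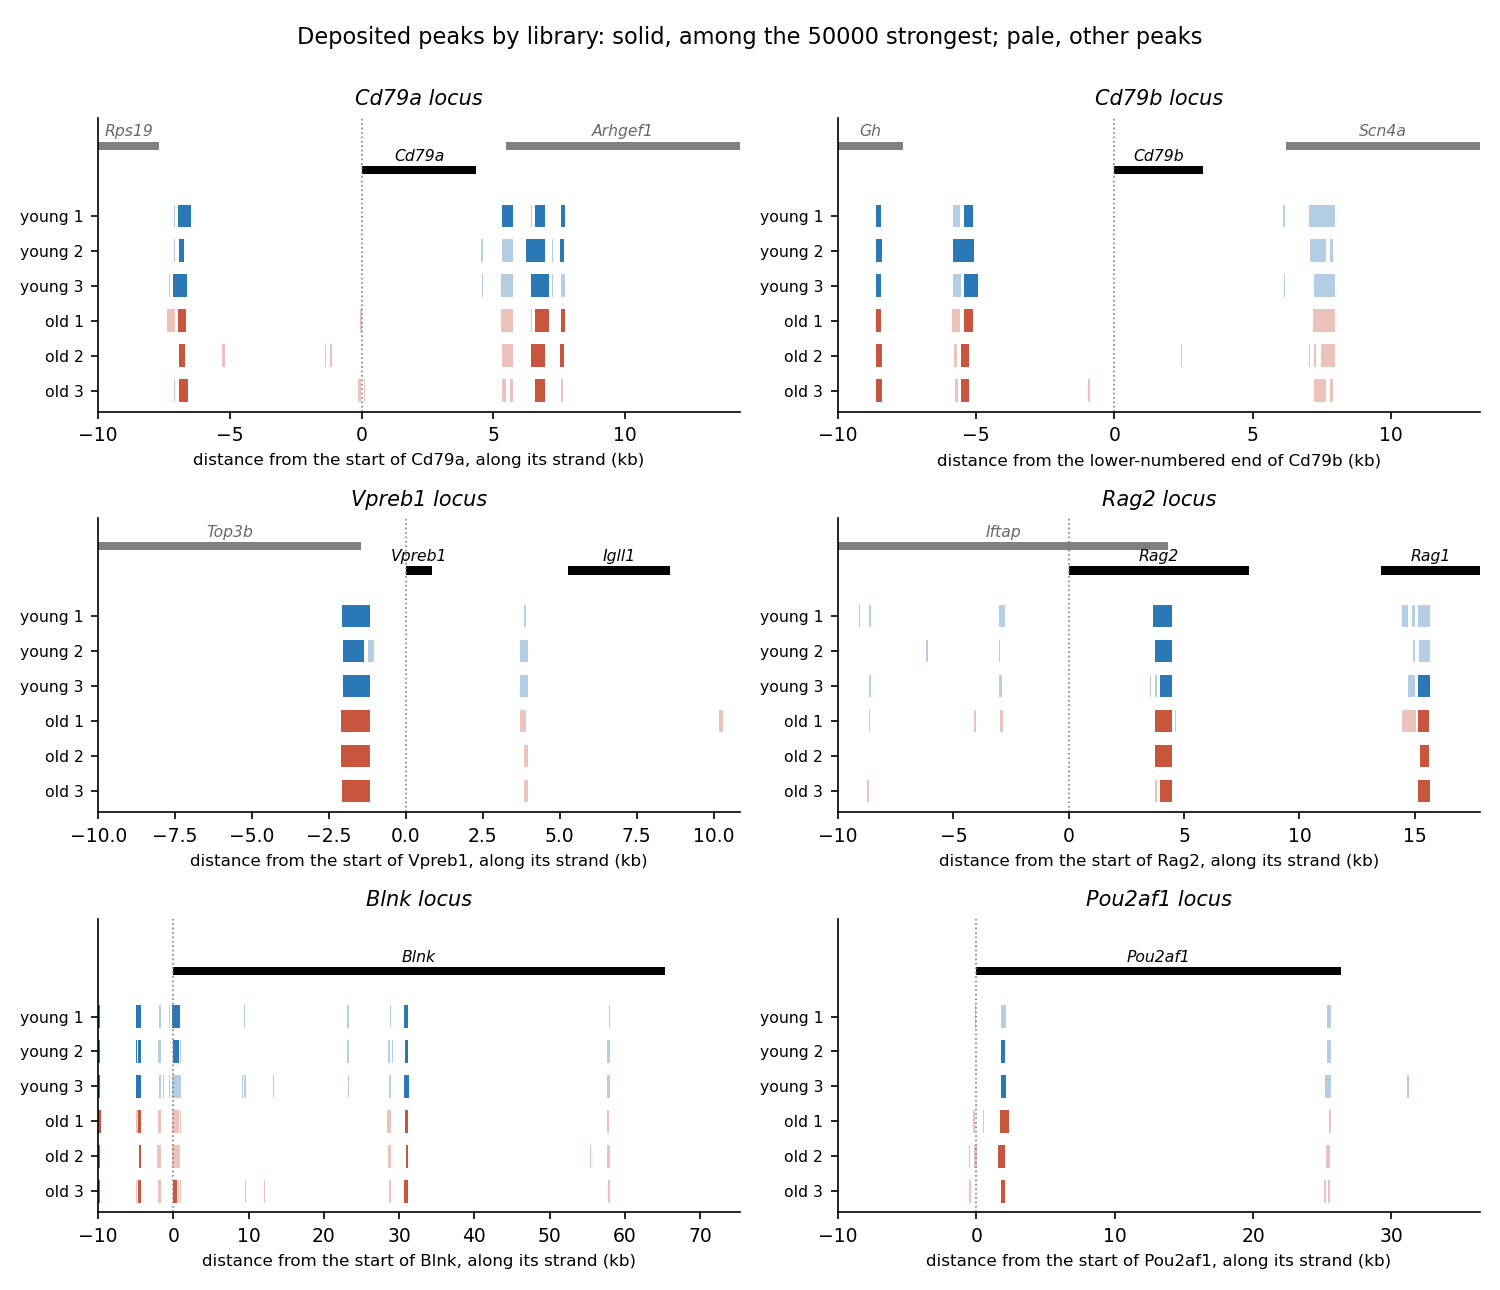
Deposited peaks of each library (young blue, old red) against distance from the gene's start in kb, or from the lower-numbered end for Cd79b, with the members' spans in black and other genes in grey. Solid bars are among the 50000 strongest peaks of the library. The spans of Cd79a, Cd79b, Vpreb1 and Igll1 are nearly or wholly empty, and solid bars lie at the starts of Arhgef1, Top3b and Iftap.

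Blnk and the regulators Ebf1 and Pou2af1 carried peaks of their own. Blnk (chromosome 19, 40928927 to 40994221) had 13 to 18 peaks per library, and no other protein-coding gene overlaps its locus. The region over its start, 40993219 to 40994351, covered 1066, 923 and 1133 bp in young and 949, 1065 and 834 bp in old libraries. Its fold enrichment, the authors' value over local background, was 4.08, 4.05 and 3.91 in the young libraries and 4.06, 3.62 and 3.94 in the old ones. The start peak was moderate, in the top 14.9% to 23.5% of each list. Stronger regions lay 9573 bp upstream (41003794 to 41004456, top 4.26% to 8.23%), 4290 bp upstream (40998511 to 40999196) and inside the gene at 40962875 to 40963537.

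Ebf1 (chromosome 11, 44618100 to 45008096) is the longest member, at 390 kb, and held 154 of the 228 merged regions of all member loci. A merged region joins peaks of any library that overlap by at least 1 bp. Its strongest region, 44616879 to 44617894, lies upstream of the first start and was found in all 6 libraries. The merged region ends 206 bp upstream of that start, at the edge of a separate weaker peak of old 1. The strong peak itself ended at -0.331 kb from the start in young 3 and at -0.576 to -0.555 kb in the other libraries. The −log10 q there was 22.1, 16.4 and 22.4 in the young libraries and 30.9, 16.6 and 20.7 in the old ones. Weaker peaks reached into the first start window only in young 2 (29 bp, top 42%) and old 1 (74 bp). In old 1 a peak outside the strongest region gave 29 bp of this (top 36.4%). The rest came from the weaker old 1 peak at the near edge of that region. The second RefSeq start window, 44619978 to 44620277, had no peak. Of the 147 regions inside Ebf1, 41 were found in all 6 libraries.

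Pou2af1 (chromosome 9, 51213690 to 51240079) had 2 to 5 peaks per library. Its main region, 51215246 to 51216028, begins 1556 bp inside the gene. It ranked in the top 21.0%, 21.3% and 16.5% in the young libraries and the top 17.5%, 9.84% and 12.3% in the old ones. The start window had peaks in young 1 (74 bp), old 1 (83 bp) and old 2 (251 bp), at the top 96.4%, 73.7% and 90.1% of their lists. No other protein-coding gene overlaps the Pou2af1 or Ebf1 locus.

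Covered length was then compared between ages. The test was limma on log2(covered bp + 200) over the 16943 loci with a mean of at least 500 bp, with Benjamini-Hochberg adjustment over all of them. All 9 member loci passed that filter and 0 were called at an adjusted p under 0.05, where 164 loci (0.968%) were called in the genome, 0.390% with more cover in old and 0.578% with less. None of the 9 had an unadjusted p under 0.05, as 12.8% of all tested loci did. The median log2 change of the members, old minus young, was 0.01, with 5 of 9 above 0. The median over all tested loci was also 0.01.

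Pou2af1 had the largest difference among the members. Its scaled covered length was 702, 649 and 760 bp in young and 766, 1378 and 880 bp in old libraries. All old values lay above all young values, with old 2 far above the rest. The log2 change was 0.39 (SE 0.19, 95% interval -0.02 to 0.79, limma adjusted p = 0.42), and 0.18 without old 2. Cd79b had 1648, 1758 and 1567 bp in young and 1419, 1437 and 1423 bp in old libraries. Here all old values lay below all young values and close together. The log2 change was -0.19 (SE 0.12, 95% interval -0.44 to 0.05, limma adjusted p = 0.537). The groups did not overlap at 17.0% of all tested loci, with old above at 8.63% and old below at 8.36%, so 1 member each way is not set apart from the rest.

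The other members overlapped between ages. Ebf1 was covered over 18667, 14937 and 19864 bp in young and 20566, 19475 and 18914 bp in old libraries, and the lowest value was young 2. Its log2 change was 0.15 (SE 0.09, 95% interval -0.05 to 0.35, limma adjusted p = 0.547), and it was 0.03 without young 2 and 0.23 without young 3. Blnk had 3718, 3829 and 4034 bp in young and 3251, 4116 and 4027 bp in old libraries, with the lowest value in old 1. Cd79a had 1443, 1786 and 1653 bp against 1613, 1883 and 1443 bp, so its lowest young and lowest old library were level. The intervals of the log2 change were -0.23 to 0.17 for Blnk and -0.25 to 0.28 for Cd79a.

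Among the paired loci, Vpreb1 had 929, 1204 and 983 bp in young and 1138, 1242 and 1201 bp in old libraries. Igll1 had 1069, 1506 and 1259 bp in young and 1410, 1462 and 1383 bp in old libraries. In both loci young 1 was lowest, and young 2 lay among the old values for Vpreb1 and above them for Igll1. Rag1 had 1858, 1602 and 1584 bp against 2120, 1461 and 1485 bp, and Rag2 had 1977, 1540 and 1452 bp against 1859, 1327 and 1378 bp. In both Rag loci young 1 and old 1 were the highest of their ages. The log2 changes were 0.18 for Vpreb1, 0.14 for Igll1, -0.01 for Rag1 and -0.11 for Rag2, with limma adjusted p from 0.675 to 0.989. Without young 1 the change was 0.11 for Vpreb1 and 0.04 for Igll1, and without young 2 it was 0.27 and 0.25.

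The deposited lists are of unequal length. Covered length was therefore also compared on the 50000 peaks of highest −log10 q in each library. The last peak kept had a −log10 q of 8.86, 6.71 and 9.96 in the young and 9.53, 5.72 and 6.47 in the old libraries. The kept lists therefore reach to weaker peaks in old 2, old 3 and young 2. Of the 9 members, 8 passed the filter and 0 were called, beside 184 of 14380 loci (1.28%), 0.841% with more cover in old and 0.438% with less. An unadjusted p under 0.05 was found for 2 of the 8 members, Ebf1 and Rag2, and for 14.8% of all tested loci. The members' median log2 change was 0.22 and that of all loci -0.00. It was -0.20 for the macrophage list (3 of 13 above 0) and 0.22 for the T-cell list (5 of 8 above 0). The plasma-cell, erythroid, neutrophil and stromal medians were -0.08, -0.09, -0.02 and 0.24. Mertk, a macrophage marker, was the only marker locus called on these lists, with a log2 change of -0.53 (limma adjusted p = 0.0347). On the full lists Mertk had -0.15 (limma adjusted p = 0.372).

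The Ebf1 locus came nearest to a call on these lists. Strong peaks covered 4628, 4619 and 3679 bp in young and 5621, 6659 and 6512 bp in old libraries. All old values lay above all young values. The log2 change was 0.52 (SE 0.11, 95% interval 0.26 to 0.78) with an unadjusted limma p of 0.00166 and an adjusted p of 0.0772. Within the gene span alone the values were 3545, 3560 and 2329 bp in young and 4485, 5342 and 5142 bp in old libraries, again without overlap. The log2 change there was 0.65 (limma adjusted p = 0.126). On the full lists, as given above, the Ebf1 groups overlapped.

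A single Ebf1 region was among the strongest 50000 in all 3 old libraries and in no young one. It was singled out after its values were seen. It spans 45001552 to 45002020, inside the gene 383452 bp from the start, and has a peak in all 6 full lists. The peaks covered 349, 304 and 294 bp in young and 466, 469 and 469 bp in old libraries before scaling. Their −log10 q was 5.29, 4.58 and 5.86 in the young libraries and 16.7, 9.16 and 13 in the old ones. The fold enrichment was 4.46, 4.17 and 4.62 in the young libraries and 7.15, 5.58 and 6.29 in the old ones. These are values of single peaks and were not tested. Of the 35 member regions with a strong peak in any library, 17 were strong in all 6, 1 in the old only and 0 in the young only. Over all 65910 such regions 51.1% were strong in all 6, 3.28% in the old only and 2.61% in the young only.

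**Figure D4:**
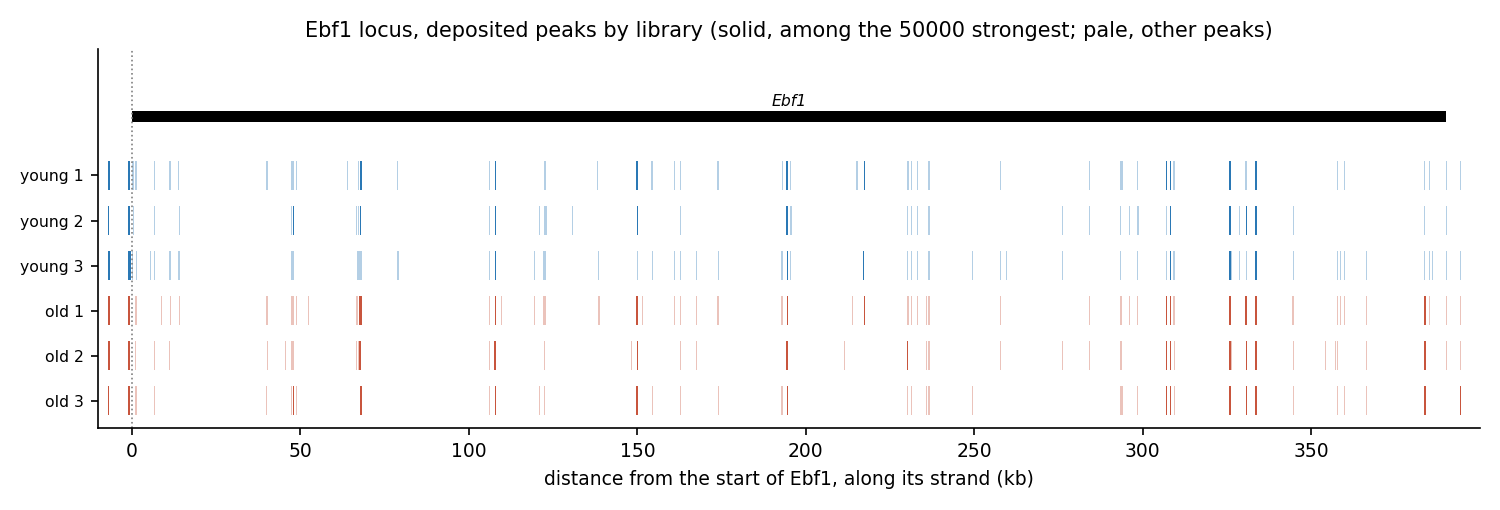
Deposited peaks over the Ebf1 locus by library, against distance from the first start in kb (young blue, old red, solid bars among the 50000 strongest peaks of the library). Near the far end of the gene, 383452 bp from the start, the bars are solid in the 3 old libraries and pale in the 3 young ones.

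Of the 8 members tested on the equal-length lists, the groups did not overlap at Ebf1 and at 5 more. That share is above the 20.3% of all tested loci. However, the Vpreb1 and Igll1 loci overlap, as do the Rag loci, so these are not separate counts. Over all tested loci old was above young at 9.88% and below at 10.5%. Vpreb1 and Igll1 had old values of 864, 1064 and 1022 bp in both loci, all from the peak at the Top3b start. Their young values were 861, 705 and 807 bp for Vpreb1 and 861, 851 and 807 bp for Igll1, so old 1 and young 1 nearly met. Rag2 had 789, 756 and 951 bp in young and 1104, 1283 and 1152 bp in old libraries. Its log2 change was 0.42 (SE 0.13, 95% interval 0.13 to 0.72, limma adjusted p = 0.17). Rag1 had 1038, 883 and 1065 bp against 1104, 1413 and 1152 bp, a log2 change of 0.25. Both Rag loci include the peak at the Iftap start and the weaker region inside Rag1. Inside the Rag1 span alone the values were 0, 0 and 457 bp in young and 431, 444 and 560 bp in old libraries. The −log10 q of that region, given above, was lower in old 2 than in young 1 and young 2. It was kept in old 2 and not in those young libraries, because the last peak kept in old 2 had a lower −log10 q. Inside the Rag2 span alone the groups overlapped, at 789, 756 and 494 bp against 673, 840 and 593 bp.

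Cd79a went the other way on these lists, at 1377, 1114 and 1089 bp in young and 910, 1057 and 794 bp in old libraries. All old values lay below all young values, and none of this cover was in the gene. The log2 change was -0.32 (SE 0.14, 95% interval -0.64 to 0.01, limma adjusted p = 0.353). Blnk overlapped, with 2348, 2142 and 1313 bp against 1063, 1008 and 1882 bp and an interval of -1.10 to 0.10. Cd79b overlapped as well. Pou2af1, below the filter, had 0, 347 and 366 bp in young and 562, 609 and 350 bp in old libraries.

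**Figure D5:**
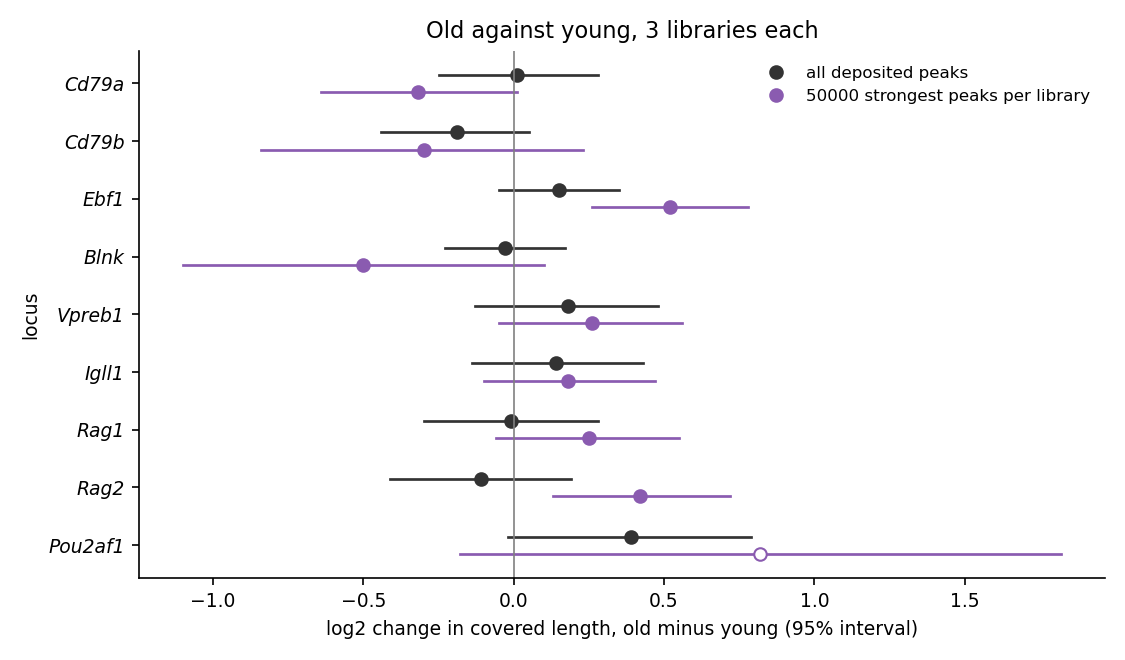
Log2 change in covered length, old minus young, with its 95% interval for each member locus, on all deposited peaks (dark) and on the 50000 strongest peaks per library (purple, open where the locus was below the filter). On the full lists all 9 intervals include 0, and on the equal-length lists those of Ebf1 (0.26 to 0.78) and Rag2 (0.13 to 0.72) do not.

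Few regions of the member loci were present at one age only, but their shares were above those of all regions. Of the 228 merged regions, 66 were in all 6 libraries (28.9%, beside 30.0% of all 403801 regions) and 86 were in a single library. Regions in all 3 young and no old libraries numbered 6 (2.63%, beside 1.42% of all regions), and regions in all 3 old and no young libraries numbered 3 (1.32%, beside 0.513%). All but 1 of these 9 lie inside Ebf1, with 5 for young and 3 for old. Without the Ebf1 locus, 1 of 74 regions (1.35%) was in all 3 young and no old libraries, and 0 the other way. The first young region, 44618209 to 44618607, lies 109 bp after the Ebf1 start and had a −log10 q of 1.65, 1.56 and 1.87. The 3 old ones lie at 44758201 to 44758325, 44769612 to 44769801 and 44831797 to 44831954. The other young ones in Ebf1 lie at 44620835 to 44620929, 44856601 to 44856826, 44917201 to 44917412 and 45003558 to 45003666. The single Blnk region, 40970864 to 40971106, lies 23115 bp inside the gene and had a −log10 q of 4.75, 1.91 and 4.51 in the young libraries. The strongest of these peaks stood at the top 34.1% of its list, and none was among the 50000 strongest of its library.

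The wider B-lineage list gave a similar count. On the full lists all 39 other B-lineage loci were tested and limma called 0, beside 0.968% of all loci, and 4 had an unadjusted p under 0.05, beside 12.8% of all loci. There 14 of 39 had a log2 change above 0, with a median of -0.02, beside 8835 of 16943 loci and a median of 0.01. On the equal-length lists 31 of the 39 passed the filter, without Lef1, Ms4a1 and Pax5, and limma called 0, beside 1.28% of all loci. There 5 of 31 had an unadjusted p under 0.05, beside 14.8% of all loci. The loci named next are given on the full lists. The smallest p among lower values there was at Lef1, a lymphoid transcription factor. Its covered length was 3916 ± 256 bp (young) and 2724 ± 559 bp (old; SD, n = 3), a log2 change of -0.51 (SE 0.12, limma adjusted p = 0.069). Next was Ms4a1, the gene of CD20, at -0.39 (limma adjusted p = 0.236). Among higher values Cr2, a complement receptor gene, had 0.24 (limma adjusted p = 0.492) and Pax5, the B-lineage commitment factor, had 0.20 (limma adjusted p = 0.738). Among the best-covered loci were Pik3ap1 at 98.3 bp per kb and Irf8 at 93.7, both above every member.

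The members' log2 changes lay on both sides of 0, so their mean profile does not describe any one of them. The mean centred log2 value over the members was -0.04, -0.02 and -0.03 in the young and 0.04, 0.08 and -0.03 in the old libraries. Of 16731 loci away from the members, D230025D16Rik and Igfn1 came nearest to it, with a mean absolute difference of 0.011 each. Fndc10 followed at 0.013, where the median locus differed by 0.104. The likeness is over 6 libraries only.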

How the data were processed

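Each library is 1 MACS2 broad peak list on mm10, deposited by the authors per library without pooling. MACS2 (2.1.0.20140616), Bowtie2 (2.2.6), Picard, SAMtools, cutadapt (1.14) and Trim Galore (0.4.4) are the tools listed, without roles, per the submitters' processing notes. Each deposited peak carries a score, a fold enrichment (a ratio over local background) and −log10 p and q values. The lists hold no read counts, so depth is unknown. All deposited peaks have a −log10 q of at least 1.00.

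Base pairs under peaks were summed per locus (RefSeq table, GRCm38.p6), divided by the library's sum over 21631 protein-coding loci and rescaled. limma 3.58.1 (R 4.3.3) was fitted with age as the only term. The test was checked on simulated data. Python 3.11.15, numpy 2.4.6, pandas 2.3.3 and matplotlib 3.10.9 did the rest. Exon and intron positions were not used here.

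Text names all members, the 2 smallest p per direction and the 3 best-covered loci of the B-lineage list (1 of them is not reported here), the 2 best-covered macrophage and other-cell loci, the 3 most similar profiles, the best region per member and the age-only regions. Adgre1 and Siglec1 were added because they code for the labelled surface proteins. Mertk was added as the only marker locus called on the equal-length lists. Members and lists were chosen with earlier results of these data known. Alternatives are listed in the closing section.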

Additional observations from a re-analysis of the deposited data

How the results depend on the processing

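Over the alternatives run (stricter −log10 q, equal-length lists, no scaling, quantile normalization, other pseudocounts, no filter, other flanks, a replicate block and each library left out), 0 members were called. The count of all loci called, 164 by the design used, was 9 at a −log10 q of 5 or more, 15 without scaling, 4 without the filter, and 292 with flanks of 50 kb. It was 29 without young replicate 1, 64 without young replicate 3, 341 without old replicate 1, 75 without old replicate 2 and 57 without old replicate 3. On equal-length lists it was 184, and 53, 85 and 108 without young replicates 1, 2 and 3 and 3, 10 and 11 without old replicates 1, 2 and 3.

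Several log2 changes turned sign. At a −log10 q of 2 or more these were Cd79a -0.05, Rag1 0.10 and Pax5 -0.47. At 5 or more they were Cd79a -0.26, Cd79b 0.18, Blnk 0.05, Rag1 0.17, Rag2 0.12 and Pax5 -0.21. On equal-length lists they were Cd79a -0.32, Rag1 0.25, Rag2 0.42 and Cr2 -0.03, and without scaling Cd79a -0.13 and Ebf1 -0.01. Without flanks Rag2 had 0.10, and with 50 kb Rag1 had 0.01, Rag2 0.10 and Pou2af1 -0.09. With a library left out the ranges were -0.08 to 0.09 for Cd79a, -0.17 to 0.08 for Rag1, -0.25 to 0.01 for Rag2, -0.09 to 0.07 for Blnk, -0.04 to 0.34 for Pax5 and, on equal-length lists, -0.06 to 0.02 for Cr2. The cause of these turns was not tested. Vpreb1 did not turn sign under any of its 16 alternatives, and Ebf1 on equal-length lists stayed at 0.42 to 0.65 over 8, with limma adjusted p from 0.095 to 0.198. Lef1 had a limma adjusted p of 0.0318 without old replicate 1.

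Regions in all libraries were 26 of 52 at a −log10 q of 5 or more (beside 41.7% of all regions), 17 of 35 merged from equal-length lists (48.6%, beside 50.9%) and 25 of 228 where a peak had to cover 50% of the region (11.0%, beside 15.5%). Young-only regions numbered 3 at 2 or more (2.07%, beside 2%), 0 at 5 or more (beside 1.85%), 0 on equal-length lists (beside 2.59%), 2 at 50% cover (0.877%, beside 1.68%) and 6 to 13 with a library left out (13 without young replicate 2, beside 3.94%, and 11 without old replicate 1, beside 3.73%). Old-only regions numbered 3 at 2 or more (2.07%, beside 0.555%), 2 at 5 or more (3.85%, beside 0.649%) and 3 at 50% cover (1.32%, beside 0.555%). On equal-length lists they numbered 1 (2.86%, beside 3.29%). With a library left out they numbered 3 to 8. There were 8 without old replicate 2 (beside 1.46%). There were 5 without young replicate 1, young replicate 3 or old replicate 1 (beside 0.779%, 1.1% and 0.893%). Start windows with a peak in all 6 were 0 of 8 on equal-length lists, beside 47% of all genes, an alternative chosen after seeing the data, as were those within the equal-length lists. Ranked by fold enrichment, the share of loci with a stronger peak was 8.7% for Cd79a, 38.9% for Cd79b, 20.2% for Blnk, 4.18% for Rag1 and Rag2 and 59.5% for Pou2af1.

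With the replicate number as a block, 265 loci were called on the full lists and 0 on the equal-length lists, and Lef1 had a limma adjusted p of 0.0238. Deviations of same-numbered libraries correlated at 0.143, 0.136 and -0.163, and not every library correlated best with its own number. With 3 libraries per age, these correlations cannot decide whether same-numbered libraries were paired. The labels do not say it either. The lists give no depth, so closed chromatin and a shallow library cannot be told apart where no peak was called.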
